A study of Mus musculus with 6 samples.

Results

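The genes of the Wnt pathway were followed in mouse ventral midbrain without Pitx3, a homeobox transcription factor of dopaminergic neurons. Members were taken by platform symbol: the Wnt ligands, the Fzd receptors, the Sfrp, Dkk and Rspo modulators, and Lrp5, Lrp6, Ror2, Wif1, Axin1, Axin2, Apc, Gsk3b, Dvl1 to Dvl3, Ctnnb1, Lef1, Tcf7, Tcf7l1 and Tcf7l2. The rule found 70 of 31769 gene probes, for 55 of 17888 named genes, and used no measured value. Members and the gene lists below were chosen with earlier results of these data known, so counts over them are descriptions only. No probe carried the symbol Tcf7l1 or Rspo2, and both are not analysed here. Per the design text, the series compared Pitx3-/- with Pitx3+/+ ventral midbrains at E14.5, a mid-gestation embryonic stage, on 6 arrays of spotted long oligonucleotides with 2 colours. Each of 3 mutant RNA samples pooled 3 midbrains and went on 2 arrays of opposite dye orientation, always against 1 wild-type RNA made from 10 midbrains. Neither the mutant allele nor the strain is stated in the labels, and the label of the extraction protocol mentions a cell line while the design text describes dissected tissue. Every wild-type value thus comes from the same RNA, and the tests below, of the pools' mean ratio against 0, leave out the spread of the controls.

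Wnt ligands are secreted lipid-modified proteins that bind Frizzled receptors and the co-receptors Lrp5 and Lrp6. In the canonical branch, Dishevelled then disables a complex of Axin, Apc and Gsk3b that would otherwise mark beta-catenin, the product of Ctnnb1, for destruction, and beta-catenin enters the nucleus and works with the Lef1 and Tcf factors. Secreted Sfrp, Dkk and Wif1 proteins hold the pathway back and R-spondins enhance it. In the midbrain, Wnt1 from the isthmus and floor plate and Wnt5a from the floor plate are known for their part in the birth and maturation of dopaminergic neurons.

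Each value is a log2 ratio of mutant over reference, first averaged over both arrays of a pool and then given as mean ± SD over the 3 pools. A constant of 50 added to every spot during background correction pulls all ratios towards 0, so the folds given are understated, most of all for dim probes. A probe was called above background where its signal passed the mean local background plus 2 SDs, and measured where either channel did so on each of the 6 arrays. Measured in this sense were 26 of the 70 member probes (37.1%, 21 genes), against 43.7% of all gene probes. A further 14 were above background on some arrays and 30 on none. Over the whole array the mutant channel was above background for 46.1% to 51.7% of gene probes, and the number of arrays limits the precision. Of the dopaminergic markers, Th, Ddc, Slc18a2, Nr4a2, Foxa1, Foxa2 and Lmx1a were above background on all 6 arrays, while Lmx1b and Pitx3 were above it on none, so that the Pitx3 probe says nothing about the genotype of the pools. Of the 11 dopaminergic genes, 5 were lower and 2 higher at an unadjusted p under 0.05, where over the brightest probes of all genes 3.02% were lower and 2.86% higher. Slc18a2, the vesicular monoamine transporter gene, had -0.38, -0.38 and -0.32 in the 3 pools. The 2 higher genes were Foxa1, with 0.28, 0.28 and 0.063, and Foxa2, with 0.13, 0.34 and 0.069. Th, also among the 5 lower, had 0.021, -0.22 and -0.23, and Nr4a2 had -0.086, -0.061 and -0.23. The signals of Aldh1a1 and Slc6a3 were not well above background on any array in the mutant, and in the reference on 6 and 2 arrays. With dimmer mutant signals raised to the dimmest signal above background on the array, Aldh1a1 stood 1.08-fold and Slc6a3 1.01-fold lower. That floor is taken over all probes, so these folds are not strict bounds. Neither gene passed (limma adjusted p = 0.527 and 0.545).

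With each pool as a replicate, no member passed limma's test at an adjusted p under 0.05 over all probes (0 of 70, lowest adjusted p = 0.908), and neither did any other probe on the array (0%). At an unadjusted p under 0.05, 2 member probes were higher (Wnt1 and Wnt3) and 4 were lower (all of Tcf7l2), where the shares over all gene probes were 2.46% and 2.41%. Where arrays were centred on the median, without loess, these shares were 1.35% and 14.2%, and 11 members were lower. Among the measured members, 1 was higher and 4 were lower, where the shares over all measured probes were 4.64% and 4.84%. A mean ratio of 0.1 or more in size was seen for 5 of 26 measured members, 4 probes of Tcf7l2 and 1 of Wif1, against 2.81% of all measured probes. For 18 of the 26 the mean was under 0.05 in size. The half-width of the 95% interval of a measured member's mean ran from 0.0292 to 0.265. The median ratio was 0.0025 over the 70 members and -0.014 over the 26 measured ones, against -8.27e-05 and -0.0014 over all probes of the same kind. Its sign was not stable across ways of processing.

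**Figure D1:**
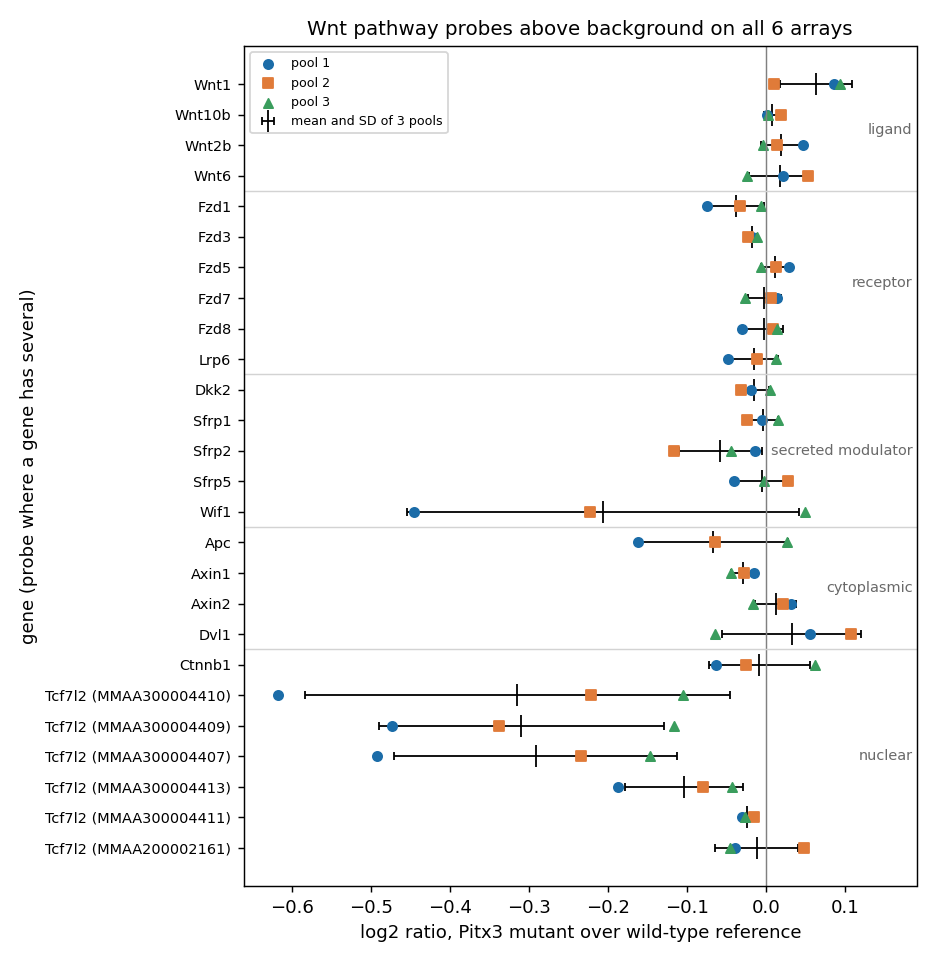
Log2 ratio of mutant over reference (x axis) for the 26 member probes above background on all 6 arrays, grouped by role (y axis). Symbols are the 3 pools, the vertical tick is their mean and the bar is 1 SD. Most members lie within 0.05 of 0, while 4 probes of Tcf7l2 lie below 0 in every pool and Wif1 lies below 0 in pools 1 and 2.

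Tcf7l2, which encodes the factor TCF4 that carries beta-catenin to Wnt target genes and is known in the embryonic brain as a marker of the thalamus, habenula and pretectum, stood furthest from 0. Pitx3 lies on chromosome 19, as do Tcf7l2 and the members Sfrp5, Wnt8b, Lrp5 and Dkk1. The means of the latter were -0.0051, 0.010, -0.024 and 0.0027, and only Sfrp5 among them was measured. Tcf7l2 has 8 probes. Probe MMAA300004409 had ratios of -0.47, -0.34 and -0.12 in pools 1, 2 and 3, a mean of -0.31 ± 0.18, or 0.807 times the reference level (unadjusted p = 0.0071). Probe MMAA300004407, of the same gene, had -0.49, -0.23 and -0.15, a mean of -0.29 ± 0.18 and 0.817 times the reference (unadjusted p = 0.0089). All 3 pools lay below 0 on both probes, and pool 3 lay nearest to 0.

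The dimmer probe MMAA300004410 had -0.62, -0.22 and -0.11 in the 3 pools, a mean of -0.31 ± 0.27 (unadjusted p = 0.029). Probe MMAA300004413 had -0.19, -0.080 and -0.043, a mean of -0.10 ± 0.075 (unadjusted p = 0.020), with a reference signal above background on 6 arrays and a mutant signal above it on only 2. The adjusted p of each of these 4 Tcf7l2 probes was 0.908 in limma's test. They were below 0 on all 6 arrays, in both dye orientations, which was so for 4 of the 70 members and for 1.34% of all gene probes. The 4 probes measure RNA of the same gene in the same pools and are not independent of each other.

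In signal units after background correction and loess, probe MMAA300004407 of Tcf7l2 read 416, 541 and 582 in the mutant channel of pools 1, 2 and 3 and 584, 641 and 641 in the reference channel of the same arrays. The highest mutant reading, 582, and the lowest reference reading, 584, were close. Probe MMAA300004409 of Tcf7l2 read 117, 146 and 138 in the mutant and 163, 184 and 150 in the reference, where 146 and 150 were close. How many of all gene probes have readings that do not overlap was not counted. For probe MMAA300004410 of Tcf7l2 the readings were 97.4, 84.6 and 88.8 in the mutant and 151, 98.7 and 95.5 in the reference, which overlap. The reference is the same RNA each time, so its range shows how far a reading still moves between hybridisations after this normalization.

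The other 4 probes of Tcf7l2 stood near 0. MMAA300004411 and MMAA200002161, both above background on all 6 arrays in both channels, had means of -0.024 ± 0.0075 and -0.012 ± 0.052. The former had -0.030, -0.016 and -0.027 in the 3 pools and the latter -0.039, 0.048 and -0.045, and each was above 0 as a mean over the 3 arrays with Cy5-labelled mutant RNA (0.024 and 0.079). MMAA300004408 and MMAA300004412, above background on no array, had -0.038 ± 0.026 and 0.0034 ± 0.0033. The probes of Tcf7l2 therefore disagree, and the files do not say which transcripts or exons each one reads.

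**Figure D2:**
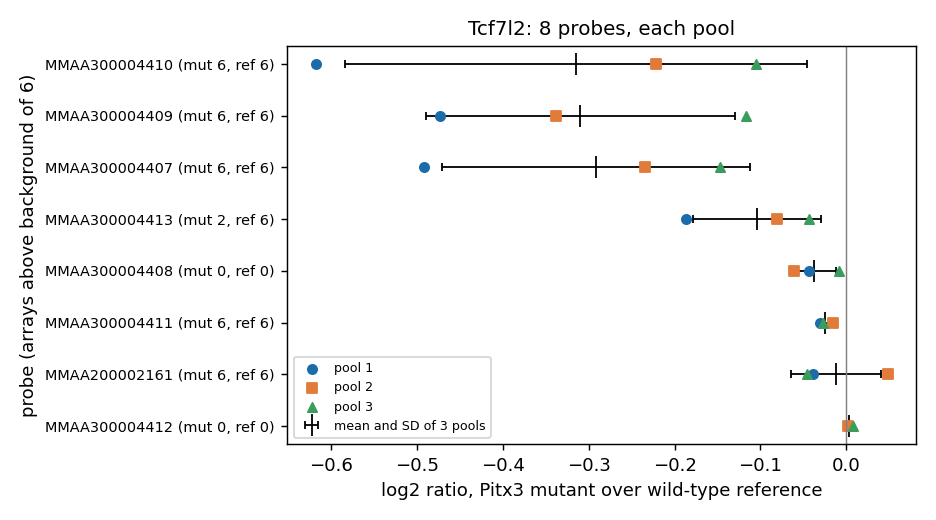
Log2 ratio of mutant over reference (x axis) for the 8 probes of Tcf7l2 (y axis, with the number of arrays on which the mutant and the reference channel were above background). Symbols are the 3 pools, the tick is the mean and the bar is 1 SD. The upper 4 probes lie below 0 in all 3 pools, with pool 1 lowest and pool 3 nearest to 0, and the lower 4 lie close to 0.

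The adjusted test of Tcf7l2 depended on pool 3. With pools 1 and 2 alone, 5 of 70 members passed at an adjusted p under 0.05, against 4.86% of all gene probes, and these were the 4 Tcf7l2 probes above and Wif1. Tcf7l2 probe MMAA300004409 then stood at -0.41 (limma adjusted p = 0.0053), MMAA300004407 at -0.36 (0.020), MMAA300004410 at -0.42 (0.040) and MMAA300004413 at -0.13 (0.044). Without pool 1 the same Tcf7l2 probes stood at -0.23, -0.19, -0.16 and -0.062, and without pool 2 at -0.30, -0.32, -0.36 and -0.12, and their adjusted p was 1 in both cases. Without the added constant, the 4 Tcf7l2 probes stood at -0.48, -0.32, -0.63 and -0.52.

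RefSeq lists more than one start for Tcf7l2. The 250 bases upstream of a pair of them, and of the single starts given for Wif1 and Wnt1, the other members described at length, are shown because Pitx3 belongs to the bicoid-type homeodomain factors, whose preferred site is TAATCC. Coordinates are those of GRCm38.p6, all on the plus strand, and capitals mark a match to TAATCC or to the TCF/LEF core CTTTGA on either strand.
Tcf7l2 first start, chr19:55741560-55741809: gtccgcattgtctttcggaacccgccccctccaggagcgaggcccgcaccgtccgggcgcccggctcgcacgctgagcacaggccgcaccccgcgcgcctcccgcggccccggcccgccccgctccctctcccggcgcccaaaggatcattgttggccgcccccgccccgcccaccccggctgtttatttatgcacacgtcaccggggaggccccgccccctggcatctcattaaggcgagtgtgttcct
Tcf7l2 second start, chr19:55895071-55895320: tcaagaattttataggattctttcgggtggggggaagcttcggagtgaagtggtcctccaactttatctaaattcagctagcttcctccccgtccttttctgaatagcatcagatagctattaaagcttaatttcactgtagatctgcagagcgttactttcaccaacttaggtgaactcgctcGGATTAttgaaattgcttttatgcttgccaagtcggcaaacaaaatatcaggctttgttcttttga
Wif1, chr10:121033754-121034003: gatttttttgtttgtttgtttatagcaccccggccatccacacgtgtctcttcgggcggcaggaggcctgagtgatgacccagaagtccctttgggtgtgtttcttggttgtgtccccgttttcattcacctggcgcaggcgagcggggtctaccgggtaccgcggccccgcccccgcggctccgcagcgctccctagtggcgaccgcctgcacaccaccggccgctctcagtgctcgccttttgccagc
Wnt1, chr15:98789607-98789856: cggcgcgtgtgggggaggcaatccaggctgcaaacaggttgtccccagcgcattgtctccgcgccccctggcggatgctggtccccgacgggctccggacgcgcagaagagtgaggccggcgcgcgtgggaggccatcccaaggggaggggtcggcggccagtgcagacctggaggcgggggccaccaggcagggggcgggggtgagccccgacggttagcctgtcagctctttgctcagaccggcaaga
The second Tcf7l2 window held TAATCC once, on the reverse strand as GGATTA, 66 bases before the start, and the other 3 windows held neither motif. TAATCC occurred in 4 of 47 windows of the 38 members found in the promoter table and in 6.3% of all 32851 windows. CTTTGA occurred in 6 of the 47 and in 13.8% of all windows. Neither motif contains the other, and a match here is a description of the letters only.

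Among the nuclear members other than Tcf7l2, Ctnnb1, the gene of beta-catenin, had ratios of -0.063, -0.026 and 0.062 in pools 1, 2 and 3, a mean of -0.0090 ± 0.064. It lay at 0.060 with the mutant in Cy5 and -0.078 with the mutant in Cy3, so the sign followed the dye. Lef1, a partner of beta-catenin on DNA, was above background on 3 arrays and had 0.021, 0.012 and -0.0021. Neither gene passed, and for Ctnnb1 the 95% interval ran from -0.078 to 0.060.

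Wif1, the gene of Wnt inhibitory factor 1, which binds Wnt proteins outside the cell, gave -0.45, -0.22 and 0.049 in pools 1, 2 and 3. Its readings were 79.0, 91.1 and 97.7 in the mutant and 107, 106 and 94.2 in the reference. Pools 1 and 2 lay below the reference and pool 3 did not, so the groups overlap. The mean was -0.21 ± 0.25 (unadjusted p = 0.082, limma adjusted p = 0.908), with -0.33 where the mutant was in Cy5 and -0.084 where it was in Cy3. Without pool 3 Wif1 stood at -0.33 (limma adjusted p = 0.018), without pool 1 at -0.087 and without pool 2 at -0.20 (adjusted p = 1 for both). With no added constant it stood at -0.45.

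The other secreted modulators stood nearer to 0. Sfrp2, a soluble Frizzled-related antagonist, had -0.014, -0.12 and -0.044, below 0 in all 3 pools with a mean of -0.058 ± 0.052 (unadjusted p = 0.051). Sfrp1, of the same family and known for its action on midbrain precursors, had -0.0053, -0.024 and 0.015, and Dkk2, which binds the Lrp co-receptors, had -0.019, -0.032 and 0.0049. For both, pool 3 lay on the other side of 0 from pools 1 and 2. Of the 12 modulator genes, 5 were measured, and 0 were called in either direction.

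Tcf7l2 and Wif1 were set beside genes listed for thalamus and pretectum and for forebrain and hypothalamus. How specific each gene is to that tissue, and whether it is also expressed within the ventral midbrain, was not tested. Both lists were chosen with earlier results of these data known, so their counts are no test. In the thalamus and pretectum list, 7 of 7 genes had a probe, 6 were measured, and 2 were lower at an unadjusted p under 0.05, against 3.02% over the brightest probes of all genes. Lhx9 had -0.81, -0.42 and -0.12 and Lhx2 had -0.17, -0.082 and -0.029 in the 3 pools. Both genes, like the 4 Tcf7l2 probes, lay furthest below 0 in pool 1 and nearest to 0 in pool 3. Gbx2 had -0.25, -0.083 and 0.066, while Tal1 went the other way, with 0.33, 0.42 and -0.074. Barhl2 and Rora had means of -0.018 and 0.0085, and Sox14 was above background on no array. The summed signal of the list was 1110, 1250 and 1160 in the mutant and 1220, 1220 and 1200 in the reference.

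In the forebrain and hypothalamus list, 11 of 13 genes had a probe, 8 were measured, and 3 were lower at an unadjusted p under 0.05, against the same 3.02%. For Isl1 the pools gave -0.63, -0.54 and 0.054, for Dlx1 -0.90, -0.94 and 0.050, and for Dlx2 -0.46, -0.42 and 0.019. In these 3 genes pools 1 and 2 lay far below 0 and pool 3 just above it. Dlx5 and Sim1 had the same signs, with -0.18, -0.12 and 0.026 and -0.028, -0.018 and 0.025, while the measured Six3 (-0.068, -0.0014 and -0.041), Nkx2-1 (-0.011, -0.057 and -0.033) and Pomc (-0.0031, 0.031 and -0.014) did not. The summed signal of this list was 843, 846 and 1100 in the mutant and 1020, 1010 and 1090 in the reference, with Foxd1 and Rax above background on no array. How far these markers bear on the ratios of Tcf7l2 and Wif1 was not tested, and fewer cells of a type cannot be told apart from less RNA per cell in dissected tissue.

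**Figure D3:**
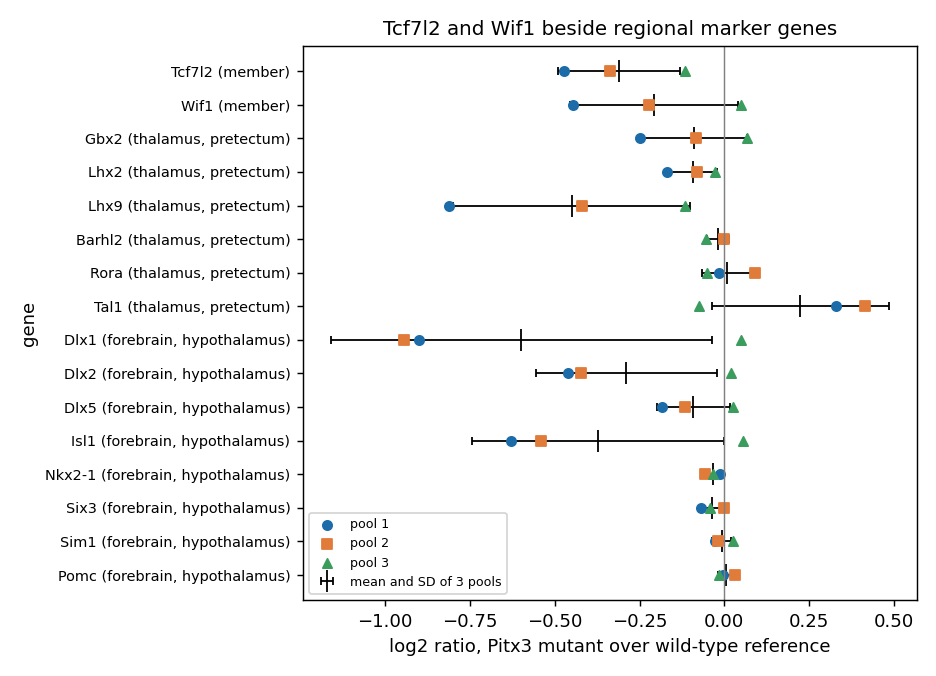
Log2 ratio of mutant over reference (x axis) for Tcf7l2 (probe MMAA300004409), Wif1 and the measured markers of thalamus and pretectum and of forebrain and hypothalamus (y axis). Symbols are the 3 pools, the tick is the mean and the bar is 1 SD. Lhx9, Lhx2, Six3 and Nkx2-1 lie below 0 in every pool as this Tcf7l2 probe does. Wif1, Gbx2, Dlx1, Dlx2, Dlx5, Isl1 and Sim1 lie below 0 in pools 1 and 2 only. Tcf7l2 is shown by its probe with the lowest p and each marker by its brightest probe. The measured Tcf7l2 probes MMAA300004411 and MMAA200002161, not shown, had means of -0.024 and -0.012.

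Among the ligands, Wnt1, which patterns the midbrain and isthmus, gave 0.085, 0.010 and 0.094 in pools 1, 2 and 3. Its readings were 73.3, 69.7 and 81.5 in the mutant and 69.1, 69.2 and 76.3 in the reference, and the ranges overlap. The mean was 0.063 ± 0.046, or 1.04-fold (unadjusted p = 0.030, limma adjusted p = 0.908), and both dye orientations gave a similar value, 0.061 with the mutant in Cy5 and 0.065 with it in Cy3. Without the added constant Wnt1 stood at 0.21, with an unadjusted p of 0.055 in limma's test. With the constant, its unadjusted p was 0.12 without pool 1, 0.0082 without pool 2 and 0.068 without pool 3.

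Genes listed for the isthmus and rhombomere 1, which border the Wnt1 domain of the caudal midbrain, were read beside it. The list was chosen with earlier results known, and how specific each gene is to that tissue was not tested. Of 10 genes, 9 had a probe and 6 were measured, and En2, En1 and Tph2 were higher at an unadjusted p under 0.05, against 2.86% over the brightest probes of all genes. En1 and En2, homeobox genes known as targets of Wnt1 signalling, had 0.82, 0.86 and 0.39 and 0.79, 0.90 and 0.68 in the 3 pools. Fgf8, the isthmic organiser signal, had 0.0075, -0.0033 and 0.017, Pax2 had a mean of -0.015, and Pax5, Spry1 and Hoxa2 were above background on no array. The summed signal of the list was 1660, 1820 and 1440 in the mutant and 1180, 1240 and 1140 in the reference. Without En1 and En2 it was 564, 566 and 531 against 547, 553 and 527, so nearly all of the gap in summed signal came from these genes. The sum says little about dimmer genes. Tph2 had 0.12, 0.19 and 0.097 and was above 0 on all 6 arrays. Fgf17 had 0.089, 0.061 and -0.0075, with -0.11 for the mutant in Cy5 and 0.20 in Cy3. The part of these markers in the Wnt1 value was not tested.

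Of the 21 ligand probes (19 genes), 4 were measured, 4 were above background on some arrays and 13 on none. Wnt2b had 0.046, 0.014 and -0.0038, Wnt6 had 0.021, 0.053 and -0.024, and Wnt10b had 0.00047, 0.019 and 0.0020. These 3 canonical-type ligands did not pass. Wnt5a and Wnt7a were above background on no array, so the ratios of these 2 ligands, -0.028, -0.022 and 0.042 for Wnt5a and 0.019, 0.0081 and -0.011 for Wnt7a, are those of probes at the background. Wnt3 fell outside the naming rule and is given because it was counted above. Its probe was likewise above background on no array, and it stood at -0.037 with the mutant in Cy5 and 0.10 with it in Cy3. Wnt7b, also outside the rule and mentioned further below, was above background on 5 arrays. It had 0.045, 0.029 and 0.019 (unadjusted p = 0.053 in limma's test), with 0.061 for the mutant in Cy5 and 0.00067 in Cy3.

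Of the 13 receptor and co-receptor genes, 6 were measured and none had an unadjusted p under 0.05. Fzd1 had -0.075, -0.032 and -0.0060 (unadjusted p = 0.080). Fzd3, which acts in axon guidance and planar polarity, had -0.018, -0.023 and -0.011. Fzd5 had 0.028, 0.012 and -0.0065, and stood at 0.057 with the mutant in Cy5 against -0.035 in Cy3. The co-receptor gene Lrp6 had -0.049, -0.012 and 0.013. The 6 measured receptor means all lay within 0.05 of 0, with interval half-widths from 0.0292 to 0.0443, while Lrp5 and Ror2 were above background on no array.

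Of the 13 probes of cytoplasmic members, 4 were measured and none had an unadjusted p under 0.05. Apc, the scaffold of the destruction complex, had -0.16, -0.065 and 0.026, a mean of -0.067 ± 0.094. Axin1, the limiting scaffold of the same complex, had -0.016, -0.029 and -0.045, below 0 in all 3 pools (unadjusted p = 0.063), but lay at 0.025 where the mutant was in Cy5. Dvl1, which relays the receptor signal, had 0.055, 0.11 and -0.064. Axin2, which restrains the pathway and is itself a widely used readout of it, had 5 probes. Its measured one, MMAA300000020, had 0.032, 0.021 and -0.017, with a 95% interval from -0.026 to 0.050, and the other 4 had means of 0.0053 to 0.026 and were above background on 1 array at most.

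In all, 11 of 70 members lay above 0 in all 3 pools and 14 below, where 12.9% and 12.6% of all gene probes did. Tcf7l2 alone gave 6 of the 14. Of the 62 member probes of other genes, 10 lay above 0 in all 3 pools and 8 below. Pool 3 was of opposite sign to pools 1 and 2 in 12 of 26 measured members, among them Wif1, Apc, Dvl1 and Ctnnb1, against 42.6% of all measured probes. The means for mutant RNA in Cy5 and in Cy3, over 3 arrays each, had opposite signs in 11 of 26 measured members (42.3%), where 65.7% of all measured probes did so.

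**Figure D4:**
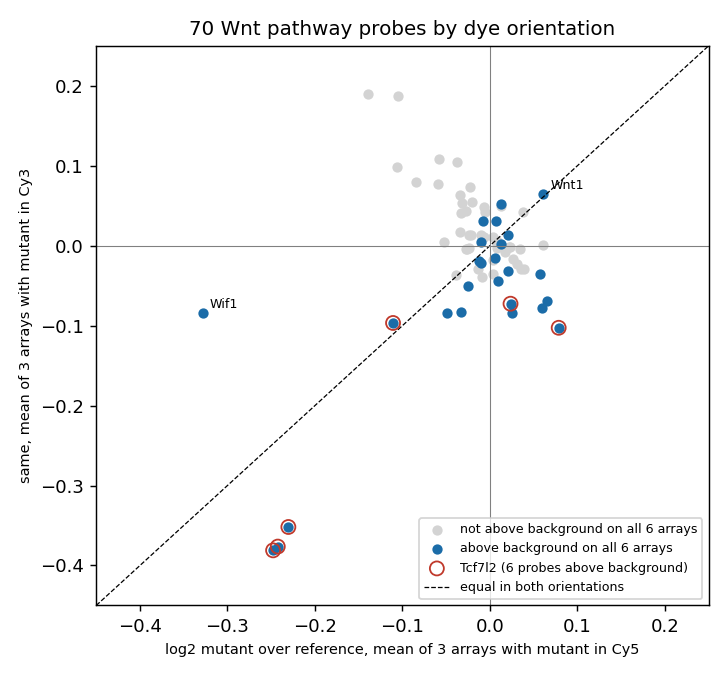
Mean log2 ratio of mutant over reference where the mutant was in Cy5 on 3 arrays (x axis) and in Cy3 (y axis) for the 70 member probes. Blue points were above background on all 6 arrays and rings mark the 6 such probes of Tcf7l2. In 4 of these and in Wif1 both means lie below 0, and Wnt1 lies above 0 on both axes.

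Further genes of the pathway were read from 5 lists with 1 probe per gene, the brightest. Of 85 genes 81 had a probe and 47 were measured. None passed after adjustment, and at an unadjusted p under 0.05 there were 5 higher and 1 lower, where the shares over the brightest probes of all genes were 2.86% and 3.02%. The median ratio over the 81 genes was 0.0032.

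In the secretion and surface list, 2 of 19 were higher and none lower. Apcdd1, the gene of a membrane-bound Wnt inhibitor, had 0.22, 0.18 and 0.057 in the 3 pools, a mean of 0.15 ± 0.087 (unadjusted p = 0.0074), and was above 0 on all 6 arrays. Wls, the carrier that brings Wnt proteins to the cell surface, had 0.11, 0.13 and 0.10, close together across pools with a mean of 0.11 ± 0.012 (unadjusted p = 0.00027, limma adjusted p = 0.527). Its dye orientations differed, with 0.20 for the mutant in Cy5 and 0.032 in Cy3. Lgr5, an R-spondin receptor gene, had a mean of 0.028 but -0.095 in Cy5 against 0.15 in Cy3. Lgr4, of the same receptor family, stood at -0.018 ± 0.0090 and was above background on no array.

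In the cytoplasmic list, 1 of 13 was lower. Csnk1e, a casein kinase that acts on Dishevelled, had -0.11, -0.014 and -0.11, a mean of -0.079 ± 0.056 (unadjusted p = 0.023), and stood at 0.0060 with the mutant in Cy5 and -0.16 in Cy3. Nkd1, which binds Dishevelled, stood at -0.035 ± 0.029, and Fbxw11, of the ligase that tags beta-catenin, at 0.025 ± 0.055. Tnks2, a tankyrase gene, stood at 0.022 ± 0.017 and was above background on no array. The planar polarity list had 0 of 12 in either direction, with the kinase gene Mapk8 at -0.025 ± 0.027, Rhoa at 0.024 ± 0.025 and Rac1 at -0.050 ± 0.078. Celsr1, a cadherin gene, stood at 0.039 ± 0.029 but was above background on no array. The nuclear partner list had 0 of 15. Tle5, a short member of the Groucho corepressor family, had 0.36, 0.29 and -0.059, and the corepressor genes Ctbp1 and Ctbp2 had 0.13, 0.12 and -0.064 and 0.093, 0.082 and -0.012. All 3 corepressor genes lay above 0 in pools 1 and 2 and below it in pool 3. Cby1, a beta-catenin antagonist, stood at 0.017 ± 0.041.

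In the list of known targets, 3 of 22 were higher and none lower: En2, En1 and Tnfrsf19. Tnfrsf19, a receptor gene of the tumour necrosis factor family, had 0.052, 0.027 and 0.046, a mean of 0.042 ± 0.013 (unadjusted p = 0.020). Lmx1b was above background on no array, as were Sp5, Sp8, T, Msx1, Neurog1, Jag1 and Fgf20. The counts over these lists carry no test of the lists themselves.

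**Figure D5:**
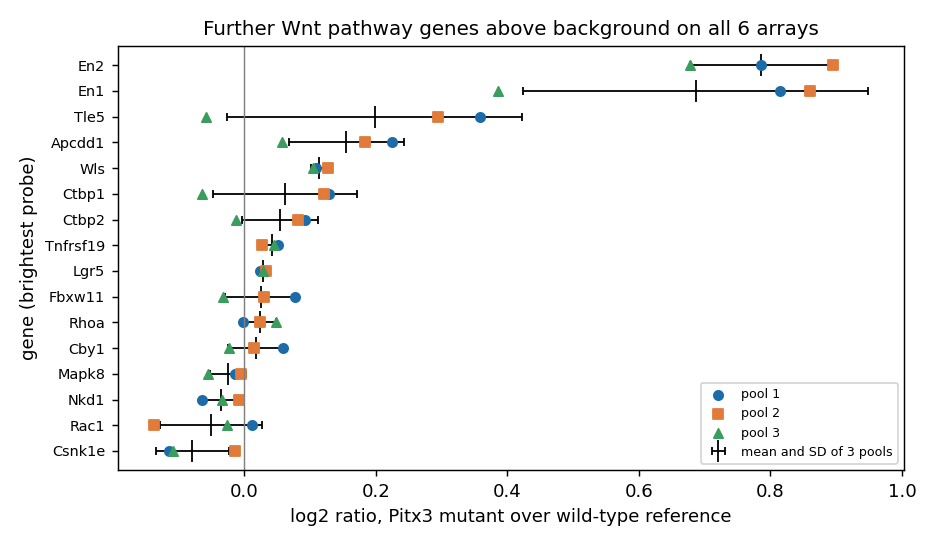
Log2 ratio of mutant over reference (x axis) for the genes of the 5 further lists with the lowest p in each list that were above background on all 6 arrays (y axis). Symbols are the 3 pools, the tick is the mean and the bar is 1 SD. En2 and En1 lie furthest above 0, Apcdd1 and Wls lie above 0 in all 3 pools, and Tle5, Ctbp1 and Ctbp2 lie above 0 in pools 1 and 2 only.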

How the data were processed

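Members, lists and naming rule were chosen with earlier results of these data known. Per the design text, ventral midbrain RNA was read on 6 two-colour arrays, 2 dye-swapped arrays for each of 3 mutant pools. Per the deposited protocol text, spots were quantified with ImaGene, and the deposited scanner files give spot intensity and local background intensity in both channels. The authors' deposited series matrix holds log2 ratios of mutant over reference after print-tip loess (span 0.4) without background subtraction, and served as an alternative. Software versions are not stated there. No spot was dropped for quality, as these scanner files carry no flags.

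Analysis started from the scanner intensities with limma 3.58.1 in R 4.3.3: normexp background correction with an offset of 50, global loess within each array (span 0.3, control spots at weight 0), then removal of 3223 control spots of 34992. Ratios were averaged within a pool, since its arrays share both RNA extracts, and their mean over pools was tested against 0 by lmFit and eBayes, with 2 residual degrees of freedom, 2.74 prior degrees of freedom and Benjamini-Hochberg adjustment over 31769 probes. P-values weigh the mean ratio against the spread between pools, moderated by the spread over all probes. The spread between pools holds biological and technical differences. For readings and summed signals, average intensities were also quantile-normalized between arrays. The folds given for Aldh1a1 and Slc6a3 used the same values. Symbols came from the platform table (26000 probes with a symbol) and were updated through RefSeq. Named in each role class were measured members with an unadjusted p under 0.05 or a mean of 0.1 or more in size, then those with the lowest p up to 4 genes, and genes known in midbrain development; in each further list, the 4 genes with the lowest p. The fit was checked on simulated data with log2 effects larger than any member's mean. It was not checked at the effect sizes reported for the members. Alternatives changed the background correction, normalization, filter, variance model, replicate unit, dye orientation and pools.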

Additional observations from a re-analysis of the deposited data

How the results depend on the processing

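Limits: 3 pools, 1 reference RNA and an added constant that pulls dim probes towards 0 set what can be seen, and most members lay near the background. Over all alternatives, 32 named probes gave 407 values, of which 368 kept their side of the threshold and either their sign or a value within 1 SD, 5 passed only without pool 3 (4 of Tcf7l2 and Wif1), 28 moved and 6 left a sign that all 3 pools share. The filter on dim probes, the intensity trend and both models of 6 arrays reuse the same ratios. Their 23, 32, 32 and 32 values could not change sign. In all, 39 of the 407 values had another sign than the value reported, 10 with the mutant in Cy5 only and 5 with it in Cy3 only. The cause of these changes was not tested. Among probes of 1 sign in all 3 pools, the sign changed with the mutant in Cy5 only for Tcf7l2 MMAA300004411 (0.024), Fzd3 (0.0092), Axin1 (0.025), Axin2 MMAA300000021 (-0.022) and Axin2 MMAA300000023 (-0.0055), and with the mutant in Cy3 only for Tcf7l2 MMAA300004412 (-0.029). The 4 lower Tcf7l2 probes and Wif1 stayed below 0, and Wnt1 above 0, under all alternatives run.

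Members past the adjusted threshold numbered 1 with the mutant in Cy5 only, 1 with it in Cy3 only and 0 to 5 leaving out a pool. The 1 member was Tcf7 in both, named after its values were seen, at -0.14 in Cy5 and 0.19 in Cy3. These single-orientation fits hold dye effects, and over all probes they called 312 and 430, where leaving out pool 3 called 1543. The shares of all gene probes at an unadjusted p under 0.05 moved too: 14.2% lower with median centring, 11% higher and 11.5% lower with Cy5 only, 10.9% and 11.1% with Cy3 only, and 6.99% and 8.74% without pool 3. Higher shares were 2.93% with an offset of 0, 2.4% in the authors' matrix and 2.51% of the probes kept by the filter. Lower shares were 2.5% without background subtraction, 2.56% in the authors' matrix and 2.44% with an intensity trend. They were 3.43% with the random block and 4.04% with independent arrays. Without pools 1 and 2 in turn, 1.04% and 1.02% were higher and 1.16% and 1.27% lower. The counts that follow are to be read against these. Members higher at an unadjusted p under 0.05 numbered 5 with an offset of 0, 1 in the authors' matrix, 1 with the filter on dim probes, 4 and 13 with Cy5 and Cy3 only, and 1 to 2 leaving out a pool. Members lower numbered 7 without background subtraction, 11 with median centring, 8 in the authors' matrix, 8 with an intensity trend, 8 with the pool as a random block, 8 with 6 independent arrays, 12 with Cy5 and 12 with Cy3 only, and 1 to 10 leaving out a pool, with 1 when pool 2 was left out.

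Over the brightest probes of all genes, 17.7% were lower with median centring, 12.4% higher and 11.8% lower with Cy5 only, 11.2% and 12.3% with Cy3 only, and 9.15% and 9.64% without pool 3. Lower shares were 3.17% in the authors' matrix, 2.45% with a trend and 4.18% with the random block. With independent arrays 4.41% were higher and 4.85% lower. Without pools 1 and 2 in turn, 1.32% and 1.1% were higher and 1.52% and 1.74% lower. Genes of the further lists that were higher numbered 8 with independent arrays, 9 and 11 with Cy5 and Cy3 only, and 4 to 14 leaving out a pool. Those lower numbered 11 with median centring, 2 in the authors' matrix, 0 with a trend, 2 with the random block, 2 with independent arrays, 7 with Cy5 and 7 with Cy3 only, and 0 to 3 leaving out a pool. Past the adjusted threshold were 1 with a trend (En2), 2 with the block and 2 with independent arrays (En1 and En2), 3 with Cy5 only (these and Wls), 2 with Cy3 only (En1 and En2), and 0 to 8 leaving out a pool. The members' median was 0.0083 with an offset of 0, -0.0020 without background subtraction, -0.014 with the filter, -0.0082 and -0.0017 with Cy5 and Cy3 only, and -0.00084 to 0.0020 leaving out a pool. No paired analysis was possible because the controls are 1 RNA with no replicate numbers.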

Other observations

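Endothelial genes were read because Wnt7a and Wnt7b are known to act on brain vessels. Of 7 genes with a probe, 6 were measured, and 2 were higher at an unadjusted p under 0.05 in limma's test, against 2.86% over the brightest probes of all genes, and none after adjustment. Pecam1, an adhesion gene of endothelial cells, had 0.082, 0.060 and 0.028 in pools 1, 2 and 3, above 0 in each. Esam, above background on some arrays only, had 0.024, 0.047 and 0.029. The other 5, Cdh5, Kdr, Flt1, Cldn5 and Tek, had means between -0.0089 and 0.028. In the dorsal midbrain and roof plate list, 9 genes had a probe and 3 were measured: Zic1 had -0.24, -0.18 and 0.089, Lmx1a had 0.072, 0.013 and 0.019, and Pax7 had a mean of 0.0057. In that list 1 gene was lower at an unadjusted p under 0.05, Ttr, with -0.060, -0.070 and -0.066, and it was above background on no array.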
